A study of Homo sapiens with 7 samples.

Results

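Myc binding was examined at 10 genes of polyamine synthesis and turnover in HT29, a human colon adenocarcinoma cell line. The genes were chosen by name, with earlier results of these data known: ODC1, SRM, SMS, AMD1, AZIN1, OAZ1, OAZ2, SAT1, SMOX and PAOX. They are 10 of the 20037 protein-coding genes that the RefSeq table used here places on a nuclear chromosome. Of the 47017 peaks in the authors' list, 38 had their summit inside the span of a member or within 20 kb of it. All cells were grown with serum and then received oleic acid, a common dietary fatty acid, for 6 h in serum-free medium. Going by sample titles, the series has 3 Myc libraries, 3 IgG libraries as controls and 1 input, although an antibody label for Myc also stands on the IgG libraries. The assay was CUT&RUN, in which an antibody brings a nuclease to the bound sites and the released fragments are sequenced. The peak list gives 1 value per peak for the Myc libraries, so no value per library and no spread between replicates can be given. No cells without oleic acid were analysed here, so the values show where Myc was found under the fatty acid and not what it changed. A list of binding sites holds no RNA levels, and the cell type was taken from the labels without a check of its markers.

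Polyamines (putrescine, spermidine and spermine) are small positively charged molecules that bind RNA and DNA and are needed for growth. Ornithine decarboxylase, encoded by ODC1, makes putrescine, and the product of AMD1 decarboxylates S-adenosylmethionine to supply the aminopropyl groups that SRM and SMS add to make spermidine and then spermine. Antizymes, encoded by OAZ1 and OAZ2, bind ornithine decarboxylase and send it to the proteasome, and AZIN1 encodes a relative of the enzyme that has no such activity but binds the antizymes. SAT1 acetylates spermidine and spermine, PAOX oxidises the acetylated forms, and SMOX oxidises spermine directly. ODC1 is a long-known target gene of Myc, and growing intestinal epithelium and colon tumours are known for high polyamine synthesis.

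Myc with its partner MAX recognises the E-box, CACGTG. The sequences that RefSeq gives before the starts of the members (GRCh38.p14, the same chromosome sequences as hg38) are shown for 3 synthesis genes with a strong peak, for SMS with a weaker peak and for SAT1 with none. Each run holds the 250 bases before a start, read 5′ to 3′ on the strand of the gene. Capitals mark the E-box CACGTG, the variant E-box CACGCG and the GC box GGGCGG, each searched on both strands; the variant CATGTG was searched too and had no match here.
ODC1 (chr2:10448328-10448577, minus strand): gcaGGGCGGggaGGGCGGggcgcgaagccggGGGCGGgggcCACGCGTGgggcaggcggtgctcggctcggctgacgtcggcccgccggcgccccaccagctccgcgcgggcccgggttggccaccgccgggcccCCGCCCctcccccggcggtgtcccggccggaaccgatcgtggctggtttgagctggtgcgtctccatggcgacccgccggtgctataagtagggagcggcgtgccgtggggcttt
SRM (chr1:11060019-11060268, minus strand): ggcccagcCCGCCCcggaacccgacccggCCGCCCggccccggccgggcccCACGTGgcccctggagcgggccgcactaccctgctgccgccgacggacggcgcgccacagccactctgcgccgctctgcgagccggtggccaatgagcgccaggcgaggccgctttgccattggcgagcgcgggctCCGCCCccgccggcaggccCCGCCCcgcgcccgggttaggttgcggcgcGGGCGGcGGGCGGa
AMD1 (chr6:110874535-110874784, plus strand): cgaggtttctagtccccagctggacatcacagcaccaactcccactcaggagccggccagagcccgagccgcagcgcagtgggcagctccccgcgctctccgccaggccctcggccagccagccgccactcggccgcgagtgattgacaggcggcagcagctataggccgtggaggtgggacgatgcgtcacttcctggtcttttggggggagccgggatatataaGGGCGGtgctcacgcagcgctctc
SMS (chrX:21940459-21940708, plus strand): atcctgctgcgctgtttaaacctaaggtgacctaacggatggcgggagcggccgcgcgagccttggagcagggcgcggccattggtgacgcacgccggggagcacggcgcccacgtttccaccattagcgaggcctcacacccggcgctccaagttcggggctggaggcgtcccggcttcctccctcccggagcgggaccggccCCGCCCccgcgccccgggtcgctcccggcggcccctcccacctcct
SAT1 (chrX:23782923-23783172, plus strand): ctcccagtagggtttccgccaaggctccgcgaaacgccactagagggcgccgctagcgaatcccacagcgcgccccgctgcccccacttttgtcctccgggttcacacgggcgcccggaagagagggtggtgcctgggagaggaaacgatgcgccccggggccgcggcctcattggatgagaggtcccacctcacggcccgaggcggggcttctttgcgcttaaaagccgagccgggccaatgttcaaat

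ODC1 has a second annotated start downstream of the first, and a pair of E-boxes lies around it. The 30 bases around each of them are shown, with the E-box in capitals.
ODC1 upper E-box (chr2:10448024-10448053, minus strand): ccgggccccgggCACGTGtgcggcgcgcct
ODC1 lower E-box (chr2:10447990-10448019, minus strand): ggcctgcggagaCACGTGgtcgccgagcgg

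The synthesis genes ODC1 and SRM were the members with an E-box: CACGTG occurred in the 250 bases before a start of 2 of the 7 members that the sequence table holds, against 9.73% of 15843 protein-coding genes. With the variants CACGCG and CATGTG counted too, it was still 2 of 7, against 30.8% of these genes. In SRM it began 199 bases before the start and lay 111 bp from the Myc summit. In ODC1 the pair lay 900 and 934 bp from the summit, inside the same peak, and a further stretch before the first start held the variant CACGCG on both strands, overlapping in CACGCGTG. None of the E-box patterns was found in these windows at AMD1, SMS, OAZ1, OAZ2 and SAT1. At least 1 GC box was found before a start of every member in the table except SAT1, against 62.1% of all genes; SRM had 6 and each ODC1 start had 4. Of the 1542 genes with CACGTG before a start 71.1% had a Myc summit within 1 kb of a start, and of the 14301 without it 59.0%. All 7 members in the table had 20 or more CpG before a start, beside a median of 16 over all promoters. The motif shares are not given here for genes with as many CpG. A match is a match of letters only. AZIN1, SMOX and PAOX are not in the sequence table.

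A Myc summit lay within 1 kb of the start of 9 of the 10 members, against 57.3% of all protein-coding genes (11490 of 20037). For AZIN1, SMOX and PAOX, whose starts and strand the sequence table does not give, either end of the gene span was counted; the share was 46.8% over all genes counted in that way and 60.1% over genes with known starts. SAT1 was the member without a summit. All 7 members in the sequence table had 20 or more CpG in the 250 bases before a start, and 6 of these 7 had a summit, close to the 78.7% of all 7823 genes with as many CpG. The strength of a site is given by the authors' fold, the Myc fragments at the summit over the control level there. By these folds, and after they were seen, the members were placed in a strong and a weak set for description. ODC1, AZIN1, SRM and AMD1 had folds from 12.0 to 16.7, and SMS, OAZ1, SMOX and PAOX from 2.34 to 5.09. OAZ2 lay between them at 7.66, with an interval of 5.71 to 10.1. The bounds are exact Poisson intervals of the fragment count and cover counting error only; differences between sites were not tested.

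**Figure D1:**
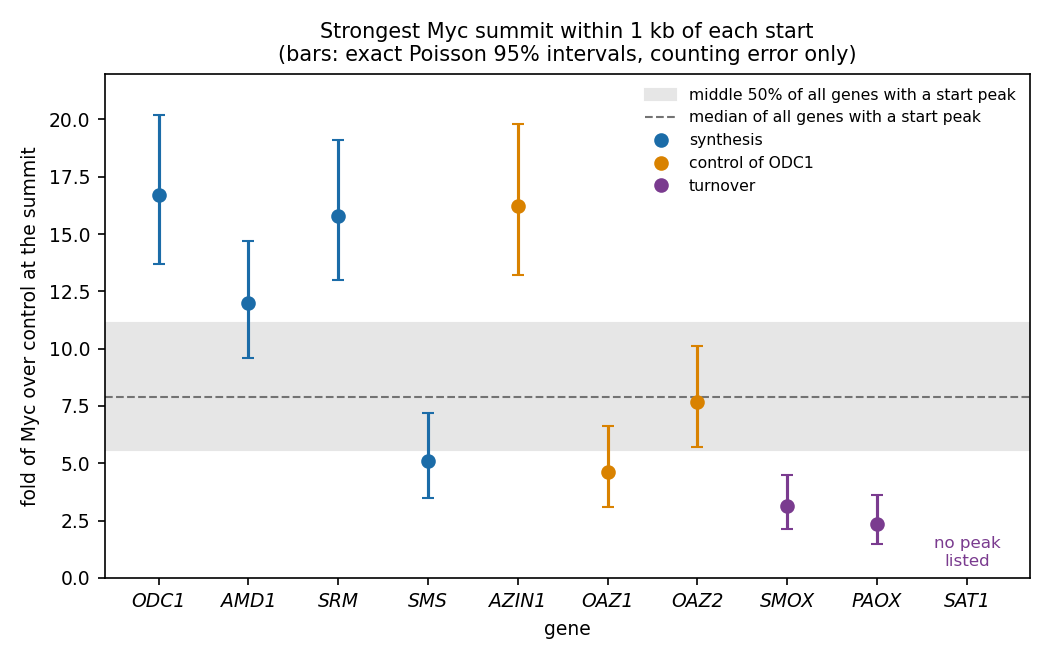
Fold of Myc over control (vertical axis) at the strongest summit within 1 kb of a start for each of the 10 genes, coloured by role, with exact Poisson 95% intervals; the band and dashed line give the middle 50% and the median of the 11490 protein-coding genes with such a summit. ODC1, AMD1, SRM and AZIN1 stand above the band, SMS, OAZ1, SMOX and PAOX below it, and SAT1 has no listed peak; the lower bound of AMD1 and the upper bounds of SMS and OAZ1 lie inside the band.

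The median fold of the 9 members was 7.66, beside 7.89 over all 11490 genes with a summit at the start. The members were thus spread to both sides of the usual level: 4 of 9 were above that median. A start fold of at least 10 was found at 4 of the 10 members, against 18.6% of all protein-coding genes. The middle 50% of all such genes had folds from 5.57 to 11.1.

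ODC1 (chromosome 2, 10439968 to 10448327, minus strand) carried the highest fold of the members at a start. Its summit, at 10448941, lay 614 bp upstream of the first start. The pileup, the number of Myc fragments over the summit, was 104 against a control level of 5.29, which gave a fold of 16.7 (95% interval 13.7 to 20.2) and a −log10 q of 90.3 in the authors' list. Of the genes with a summit at the start, 93.2% had a lower fold. The peak was 4182 bp wide, wider than 99.1% of all peaks, and covered both annotated starts and the E-box pair. The start of ODC1-DT, a long non-coding RNA gene, lay 787 bp from the same summit.

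The ODC1 locus was also the one with the most summits, 8 within 20 kb, and 90.8% of protein-coding genes had fewer. Downstream of the gene, between its 3′ end and HPCAL1, were 4 of them, at 1021, 1843, 5652 and 7402 bp from the span. The summit at 7402 bp lay inside the long non-coding RNA gene LOC124907732, 42 bp from a start or end of that gene. The strongest of the 4 had a fold of 6.24 (4.44 to 8.53) and the others 3.16 to 3.63. A weak summit inside the gene had 2.89 (1.78 to 4.48). Upstream, summits at 4058 bp, inside ODC1-DT, and at 10116 bp had folds of 4.34 and 4.71. All 7 secondary sites were thus far weaker than the site at the start, and none of their intervals reached its lower bound of 13.7.

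SRM (chromosome 1, 11054589 to 11060018, minus strand), the spermidine synthase gene, had a single strong site. Its summit at 11060328 lay 310 bp upstream of the start, with a pileup of 108 where the control level was 5.89. The fold was 15.8 (13.0 to 19.1) and the −log10 q 90.7, and 91.6% of genes with a start summit had a lower fold. The peak was 2253 bp wide. The other summit of this locus, 1724 bp beyond the 3′ end, had a fold of 3.61 (2.30 to 5.43) from a pileup of 21.

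AMD1 (chromosome 6, 110814617 to 110895713, plus strand), the gene of S-adenosylmethionine decarboxylase, had strong sites near both of its groups of starts. At the internal starts, 110874784 and 110874785, the summit lay 367 bp upstream, with a pileup of 87 over 6.36, a fold of 12.0 (9.61 to 14.7) and a −log10 q of 62.6. That peak was 4046 bp wide, wider than 99.0% of all peaks. At the far upstream start, 110814617, the summit lay 1169 bp downstream, outside the 1 kb window, and 69 bp from a start or end of CDK19, the gene of a Mediator kinase, whose span overlaps that of AMD1. There the fold was 16.1 (13.8 to 18.6), with the largest pileup of all 38 peaks, 178, over the highest control level, 10.2. The peak list cannot assign that site to AMD1 or to CDK19. A further summit, 4412 bp downstream of the internal starts, had a fold of 2.93 (1.92 to 4.30).

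SMS (chromosome X, 21940709 to 21994837, plus strand), the spermine synthase gene, was the weakest of the synthesis genes. Its summit lay 82 bp downstream of the start, with a pileup of 30 over 5.09, a fold of 5.09 (3.49 to 7.19) and a −log10 q of 11.6. The intervals of the SMS and SRM sites did not overlap. The peak was 525 bp wide, narrower than those of ODC1, SRM and AMD1, and a start or end of the pseudogene CYTH1P1 lay 654 bp from its summit. Inside the gene, summits 1509, 33168 and 33725 bp from the start had folds of 2.76, 4.42 and 3.94.

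AZIN1 (chromosome 8, 102826302 to 102864200), the antizyme inhibitor gene, stood with ODC1, the gene of the enzyme it resembles. Its summit lay 244 bp beyond the higher end of the span, with a pileup of 98 over 5.09, a fold of 16.2 (13.2 to 19.8) and a −log10 q of 84.2. The peak was 2907 bp wide, and an end of the non-coding gene MAILR lay 173 bp from the summit. Chromosome 8 as a whole had the highest median control level of the members' chromosomes, 9.43 beside 5.92 over all peaks. The chromosome median is not a value for this locus. At the AZIN1 site the control level was 5.09, the lowest value in the list. At the summits beyond the lower end, given below, it was 5.71 and 7.14. The value 5.09 was not particular to AZIN1. It also stood at the SMS and OAZ1 start sites and was the median over the peaks of chromosome X. Other member sites, on chromosomes 1, 10 and 20, had it too. The start folds of AZIN1, SMS and OAZ1 were thus pileups over the same lowest level. Whether it reflects the background near AZIN1 was not tested. Beyond the lower end, at 15712 and 19027 bp, summits with folds of 6.55 (4.79 to 8.78) and 13.3 (10.9 to 16.0) lay within 1 kb of a start or end of GASAL1, another long non-coding RNA gene.

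The antizyme genes had weaker sites than AZIN1. At OAZ1 (chromosome 19, 2269486 to 2273488, plus strand) the summit lay 214 bp downstream of the start, with a pileup of 27 over 5.09, a fold of 4.60 (3.08 to 6.61) and a −log10 q of 9.40. A start or end of the long non-coding RNA gene LOC105372240 lay 447 bp from it. The strongest summit near OAZ1 was instead 2916 bp upstream, with 6.07 (4.30 to 8.34), and the intervals of both overlapped. Further summits at the 3′ side had folds of 2.95, 4.43 and 3.45. Every fold of this locus was thus below 7.89, the median for the strongest start summit of a gene. Beside 4.11, the median over all peaks, 6.07, 4.60 and 4.43 were higher and 3.45 and 2.95 lower. At OAZ2 (chromosome 15, 64687574 to 64703281, minus strand) the summit lay 220 bp downstream of the start, with a pileup of 49 over 5.53, a fold of 7.66 (5.71 to 10.1) and a −log10 q of 26.7. A second summit, 6164 bp beyond the 3′ end and inside the neighbouring gene ZNF609, had 6.24 (4.50 to 8.45). The OAZ1 and OAZ2 intervals overlapped each other, and neither reached the lower bound of AZIN1, 13.2.

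**Figure D2:**
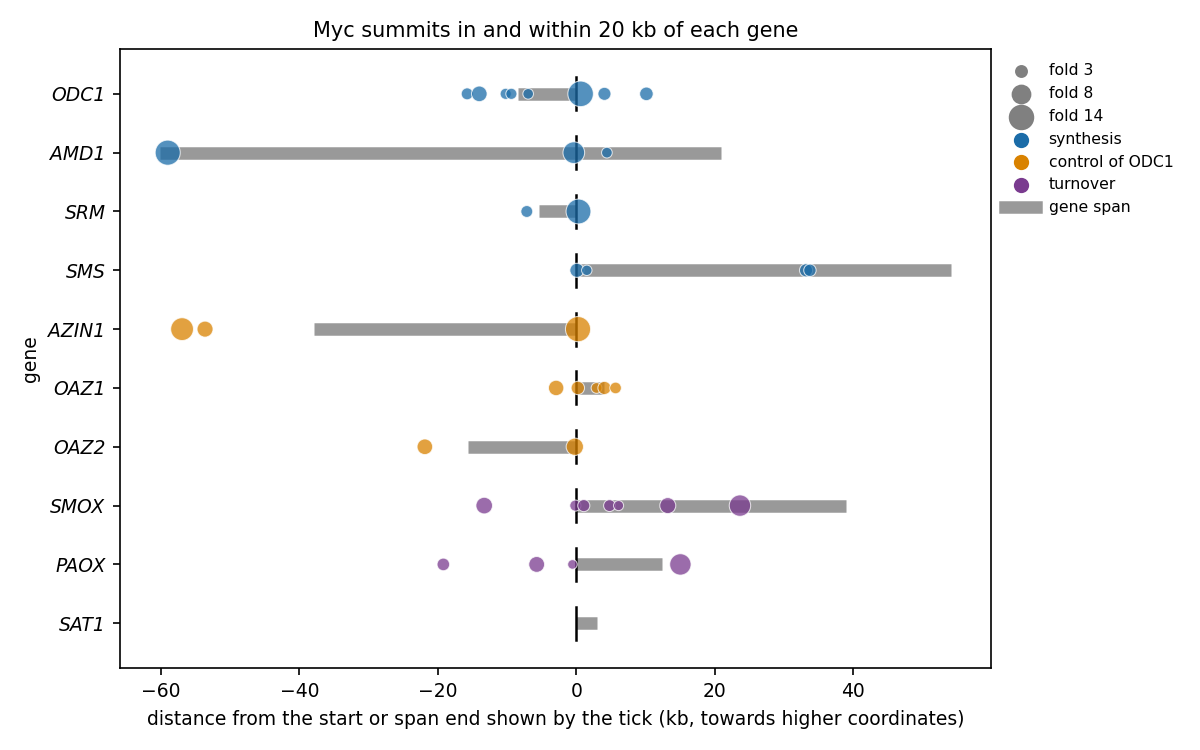
Position of the 38 Myc summits (points, area in proportion to fold) around the 10 genes, as distance in kb from the start or span end marked by the black tick, towards higher coordinates; grey bars are the gene spans. The largest points sit at the ticks of ODC1, SRM and AZIN1. AMD1 has a further one near its upstream start, at the lower end of its span. No summit appears at SAT1.

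Of the turnover genes, none had a strong site at the start. SAT1 (chromosome X, 23783173 to 23786210, plus strand), the gene of the acetyltransferase that starts polyamine breakdown and export, had no summit within 20 kb. The nearest, 21352 bp from the span, had a fold of 3.28 (2.04 to 5.03) from a pileup of 19. The 250 bases before its start held 25 CpG and were 66.4% G and C. Of the 8020 genes with fewer than 20 CpG in such a window, 42.1% had a summit at the start, against the 78.7% given above for genes with 20 or more, such as SAT1.

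Both SAT1 and SMS are on chromosome X. There, 38.8% of 848 protein-coding genes had a summit at the start, the lowest share among the members' chromosomes, and the median fold of these was 6.76 beside 7.89 over all genes. The part of the chromosome in the values of SAT1 and SMS was not tested. The shares for the chromosomes of the other members lay between 47.6% on chromosome 8 and 65.6% on chromosome 15.

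SMOX (chromosome 20, 4148828 to 4187727), the spermine oxidase gene, had a weak site at its lower end and a strong one deep inside. The summit 144 bp outside the lower end had a pileup of 29 and a control level of 8.51, the highest at a start among the members, and a fold of 3.15 (2.15 to 4.48). Its −log10 q was 5.84, and 3.68% of the genes with a start summit had a lower fold. The inner summit, 15276 bp from the higher end, had a pileup of 81 over 6.00 and a fold of 11.7 (9.33 to 14.5), above the folds of 93.8% of all peaks. It lay 69 bp from an end of LOC124904861, a long non-coding RNA gene within the SMOX span. With 7 summits within 20 kb, SMOX was second to ODC1. The remaining summits inside the gene had folds from 2.59 to 6.56, and one 13300 bp outside the lower end had 7.06 (5.28 to 9.27).

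PAOX (chromosome 10, 133379262 to 133391694), the gene of the peroxisomal oxidase of acetylated polyamines, had the weakest site of the 9. The summit 561 bp outside its lower end had a pileup of 19 over 7.53, a fold of 2.34 (1.46 to 3.60) and a −log10 q of 1.99, near the end of the authors' list at 1.30. That peak did not reach the end of the gene, and its summit lay inside the long non-coding RNA gene LOC124902563, 190 bp from a start or end of it and thus nearer to it than to PAOX. The strong site of the locus belonged to its neighbour by position: a summit 128 bp from a start or end of MTG1, a mitochondrial ribosome assembly GTPase gene, and 2591 bp beyond the higher end of PAOX had 11.7 (9.12 to 14.7). A summit with 6.41 (4.61 to 8.71) lay 183 bp from a start or end of ECHS1, a gene of fatty acid oxidation. The remaining summit, 19202 bp from the span, had 4.06 (2.80 to 5.71). It was the summit closest to the 20 kb limit from inside. Just outside the limit were the SAT1 summit named above and one 21461 bp from PAOX with a fold of 7.20.

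The start held the strongest summit of the locus at ODC1, SRM, SMS, AZIN1 and OAZ2, and a summit elsewhere was stronger at AMD1, OAZ1, SMOX and PAOX. The median fold of the 9 peaks at starts was 7.66, and that of the 29 elsewhere was 4.34, beside 4.11 over all 47016 nuclear peaks. A fold of at least 10 was found at 8 of the 38: the start sites of ODC1, SRM, AMD1 and AZIN1, the AMD1 site at CDK19, the AZIN1 site at GASAL1, the inner SMOX site and the PAOX site at MTG1. Over all nuclear peaks, which were not restricted to those in or near genes, that share was 9.72%. Some summit lay within 20 kb of 9 of 10 members, against 79.7% of all protein-coding genes. The median number of summits within 20 kb was 3.50 over the members and 2.00 over all genes, with median spans of 14070 and 24115 bp.

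**Figure D3:**
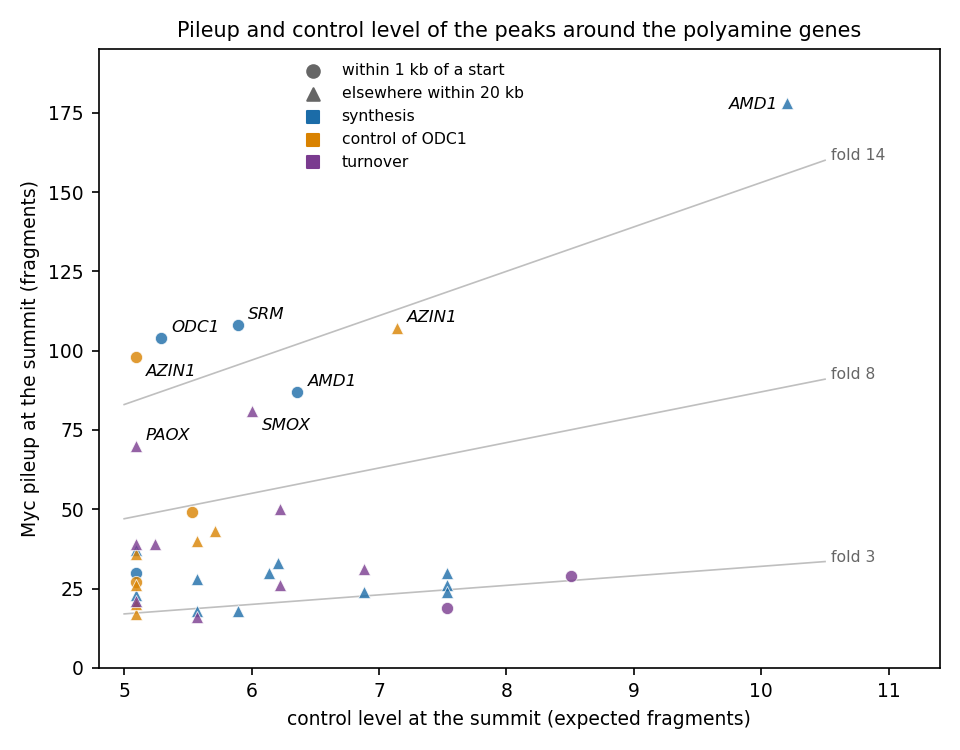
Myc pileup (vertical axis, fragments) against control level (horizontal axis, expected fragments) at the 38 summits, with circles for summits within 1 kb of a start and triangles for the others; grey lines mark equal folds and peaks with a fold of at least 10 are named. Pileups ran from 16 to 178 and control levels from 5.09 to 10.2, and most peaks without a name lie between the lines for folds 3 and 8.

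The values behind these folds were as follows. At the 4 strong start sites the control level was between 5.09 and 6.36 and the pileup between 87 and 108. At the 4 weak start sites the control level was between 5.09 and 8.51 and the pileup between 19 and 30. Since the sets were formed by the fold, which is computed from the pileup and the control level, these ranges are a description. The 4 strong start peaks were also the 4 wide ones, from 2253 to 4182 bp, whereas the other 5 were from 400 to 999 bp. The median over all peaks was 688 bp. Widths of other start peaks of similar fold were not compared, so this too is a description.

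Genes that feed or use the pathway were taken from a list of 52 by role, which includes the 10 members. Of the 42 others, 31 had a summit at the start (73.8%, Wilson 95% interval 58.9 to 84.7), against 57.3% of all protein-coding genes. Their median fold was 8.79 beside 7.89. The list was chosen with earlier results of these data known and is no random draw, so the intervals are a description and no test. Among genes with 20 or more CpG before a start the share was 78.7%. The CpG of the listed genes are not given here.

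The methionine cycle makes the S-adenosylmethionine that AMD1 consumes, and the salvage pathway recycles the methylthioadenosine that SRM and SMS release. Of 10 such genes, 8 had a summit at the start (80.0%, 49.0 to 94.3), with a median fold of 11.8. The interval includes the 57.3% of all protein-coding genes. AHCY, which clears S-adenosylhomocysteine, had 20.6 (18.2 to 23.3) from a pileup of 256. ENOPH1, a salvage enzyme gene, had 18.1 (15.0 to 21.7) at a site shared with HNRNPDL, and the methionine synthase gene MTR had 13.7 (11.3 to 16.4). MAT1A, the liver form of S-adenosylmethionine synthetase, and the salvage gene MRI1 had none; MAT2A, the form of most other tissues, had 11.1.

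Spermidine is the source of hypusine, a modified lysine of the translation factor eIF5A. Of 5 hypusine genes, 4 had a summit at the start (80.0%, 37.6 to 96.4), an interval that includes the 57.3% of all genes. EIF5A had the highest fold of the 52 genes, 20.7 (17.2 to 24.6), from a pileup of 125, and 97.4% of genes with a start summit had a lower one. DOHH, which completes hypusine, had 9.03 (6.82 to 11.7), EIF5A2 had 5.98 (4.46 to 7.87), and EIF5AL1 had none. EIF5AL1 is a close copy of EIF5A, and how uniquely reads map there was not tested.

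For the supply of arginine and ornithine, 7 of 12 genes had a summit at the start (58.3%, 32.0 to 80.7), a share near that of all genes. The mitochondrial ornithine carrier gene SLC25A15 had 11.8 (9.42 to 14.5), AGMAT 10.7 (8.28 to 13.5) and the argininosuccinate lyase gene ASL 9.46 (7.62 to 11.6). The arginase gene ARG1, the urea cycle gene OTC, the creatine synthesis gene GATM and the cationic amino acid transporter genes SLC7A1 and SLC7A2 had none at the start, although SLC7A1 had 14 summits in or within 20 kb of its span. In polyamine transport, 7 of 10 genes had one (70.0%, 39.7 to 89.2, beside 57.3% of all genes), with a median of 5.33. SLC3A2, the heavy chain of several amino acid transporters, had 17.3 (14.6 to 20.4), the vesicular polyamine transporter gene SLC18B1 had 11.5 (9.05 to 14.5) and the glypican gene GPC1 had 5.58 (3.89 to 7.77). ATP13A3, SLC12A8 and SLC22A2 had none at the start.

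Breakdown was the role with the lowest median fold. Of its 6 genes, 5 had a summit at the start (83.3%, 43.6 to 97.0, beside 57.3% of all genes). Their median was 2.72 and the highest value was 5.14 (3.63 to 7.10) at AOC1, the diamine oxidase gene. SAT2 had 2.72 (1.63 to 4.32) at a site shared with SHBG, and SATL1 had 2.63 (1.54 to 4.22) at a site shared with ZNF711. All 5 values, those of SMOX and PAOX included, were below 5.57, the lower quartile over all genes with a start summit. The AOC1 interval reached above that value. Anywhere in the gene SMOX had 11.7, and within 5 kb of an end PAOX had 11.7 at the MTG1 site. Of the relatives of the synthesis controls, OAZ3, a testis antizyme gene, had 8.86 (6.68 to 11.5) at a site shared with MRPL9, and AZIN2 had 3.46 (2.27 to 5.08).

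**Figure D4:**
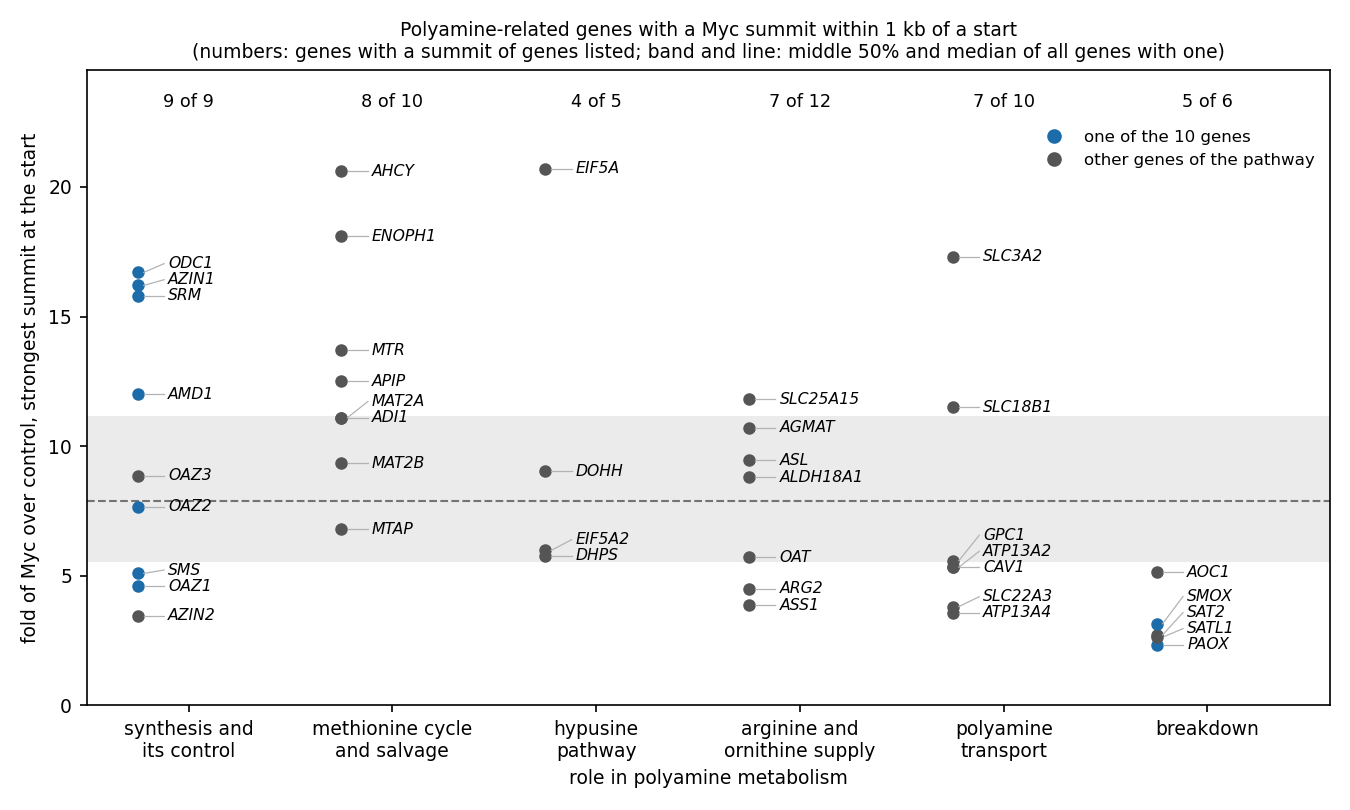
Fold of Myc over control (vertical axis) at the strongest start summit of the 40 polyamine-related genes that have one, by role (horizontal axis), with the number of genes with a summit out of those listed above each column; the band and dashed line are the middle 50% and median of all genes with a start summit. EIF5A and AHCY stand highest at 20.7 and 20.6, and the 5 breakdown genes lie below the band. The interval of AOC1, which is not drawn, reaches into the band.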

How the data were processed

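The file used was 1 peak list of the whole series in narrowPeak format. Tools named in the submitters' processing notes were MACS2 2.1.2, BWA 0.7.15, HOMER 4.11.1, SAMtools 1.5, deepTools 3.5.0, Picard 2.19.0 and FastQC 0.11.7, with the build hg38. Their settings, the library used as control and the joining of replicates were not stated there. The authors deposited, for each peak, a fold (a ratio of Myc to control at the summit), the −log10 of its p-value and q-value, a summit offset and an integer score, which was not used. The lowest −log10 q was 1.30, a q of 0.0499.

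The pileup and control level were recovered by solving the deposited fold, (pileup + 1) over (control + 1), and the −log10 p, a Poisson tail, for a whole number; this held within 0.001 for 47015 of 47017 peaks and was tested on 1979 simulated peaks, of which 100% were recovered. The median pileup over all nuclear peaks was 29. Fragments without molecular identifiers are not independent molecules, so the intervals cover counting error only.

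Gene spans came from RefSeq (GRCh38.p14), and starts and strand from a RefSeq promoter table with 15843 of 20037 protein-coding genes and 7 of 10 members. For the others, either span end was counted. Exons and introns were not used. Positions are counted from 1. No test between groups was made, since the list holds no value per library. The 10 members and all lists were chosen with earlier results of these data known. Named genes were all members, other genes with a start within 1 kb of their strongest summit, and, from the wider list, the 3 highest folds of each role and the genes without a summit where there were 5 or fewer. MAT2A and the neighbours ECHS1, GASAL1, ZNF609, HPCAL1, LOC124902563, LOC124907732, LOC105372240, HNRNPDL, SHBG, ZNF711 and MRPL9 were named after the values were seen. A gene of the wider list is not reported here and was left out of its counts. Python 3.11.15, SciPy 1.17.1 and pandas 2.3.3 were used. Alternatives were other windows, gene ends, thresholds and measures of strength.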

Additional observations from a re-analysis of the deposited data

How the results depend on the processing

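The number of members with a summit at the start was between 6 and 9 in all settings tried but the one below, with windows of 500 bp, 2 kb and 5 kb, either span end, known starts alone (6 of 7), the peak interval, the whole gene, or a −log10 q of at least 5 or 10. The share of all genes moved too, from 49.5% with a −log10 q of at least 10, where 6 of 10 members had one, to 68.8% with the whole gene, where 9 of 10 did. It was 5 once peaks over 2 kb wide were left out together with the highest 1% of folds, which removes the peaks of ODC1, SRM, AMD1 and AZIN1 by their width; the share of all genes was then 40.9%. With the 500 bp window ODC1 and PAOX had none, with either span end AMD1 had none, and with a −log10 q of at least 10 OAZ1, SMOX and PAOX had none. SAT1 had none in any of these settings. The median fold of the members was 11.7 with the 5 kb window, where the PAOX value is that of the MTG1 site. It was also 11.7 with the whole gene, where the SMOX value is that of its inner site. Over all genes these medians were 7.90 and 7.83. With known starts alone, without AZIN1, SMOX and PAOX, the members' median was 9.81 beside 8.04 over all genes. With either span end it was 6.37 beside 7.86. Whether the members' median lay above or below that of all genes thus depended on the setting. The median percentile of the members among genes with a start summit was 47.3 by fold, 42.6 by −log10 q and 38.3 by pileup. The 38 peaks became 67 within 50 kb, 16 inside the spans and 18 with a −log10 q of at least 10. CACGTG was found at 2 members against 9.73% of genes. With the variants counted it was still 2 of 7, against 30.8% of genes, and in an alternative chosen after seeing the data, with 50 bases after the start included, 2 against 10.9%. The wider list had between 31 genes with a start summit (−log10 q of at least 10, 49.5% of all genes) and 44 (5 kb window, 65.6%), so its count moved with that of all genes. No paired analysis was possible because the list holds no value per library.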
